A study of Homo sapiens with 18 samples.

Results

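The MYC gene desert of chromosome 8 was examined as a stretch of 1.8 Mb (hg38) whose first peak starts at 126406443 and whose last ends at 128197991, which holds MYC, PVT1, PCAT1 and LRATD2, and 255 of the 334857 peaks of the ATAC-seq table were centred in it. The stretch was selected on measured values: it was chosen by its 1 peak in an intron of PCAT1 that was among the largest rises after belinostat, and that peak was also low in the DMSO libraries. All values of that peak, and all belinostat differences along the stretch, are therefore given as a description, and only the comparison of DMSO with unstimulated cells was tested.

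MYC encodes a transcription factor that binds DNA with its partner MAX and drives growth and proliferation. It lies in a long region with few protein-coding genes, and distal enhancers in that region control it, different ones in different tissues. PVT1 is a long non-coding RNA gene just downstream of MYC whose promoter can compete with the MYC promoter for shared enhancers, PCAT1 is a long non-coding RNA gene first described in prostate cancer, and LRATD2 is the protein-coding gene at the far end of the desert.

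The cells were Ccd18-Co, an established line of human colon fibroblasts, used up to passage 20, so the libraries describe 1 line in culture. In all, 3 groups of 6 bulk ATAC-seq libraries were compared (a transposase cuts DNA where chromatin is open, and the fragments are counted in peaks). Unstimulated cells received no cytokines. Cells of both other groups received 3 pulses of TNF, OSM and IL-17A (10 ng/ml each) and IL-1β (0.1 ng/ml), with 72 h of cytokines in serum-free medium and 96 h of recovery in each pulse, and after 1 week of rest were given DMSO, the solvent, or 250 nM belinostat, a histone deacetylase inhibitor, for 5 days. These doses come from the sample labels. Elsewhere the study states a lower dose of IL-1β and a higher one of belinostat. Stimulated cells were collected 2 weeks after the DMSO or belinostat. The labels do not say that the 6 libraries of a group came from separate cultures, so p-values measure the spread between these libraries, which may be technical.

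Counts in peaks ranged from 7077321 to 11352032 per unstimulated library, from 6488975 to 8066642 per DMSO library and from 4661678 to 6370845 per belinostat library, and the window held 4059 to 10873 of them. Start peaks of the fibroblast markers COL1A1, COL1A2, COL3A1, PDGFRA, PDGFRB, THY1, DCN, LUM and VIM were present for 9 of 9 genes, at the 85.0th to 99.8th percentile of all peaks. Start peaks were also listed for 7 of 7 markers of epithelium (EPCAM, CDH1, CDX2), leukocytes (PTPRC, CD3E) and endothelium (PECAM1, CDH5), at the 18.3rd to 86.9th percentile, and none of these was at 0. The part of other cells in the results was not tested. In bulk samples, a site open in fewer cells and a site less open in each cell cannot be told apart.

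The peaks did not fill the desert evenly. In 18 bins of 100 kb, 1 to 28 peaks were found per bin, with 1 peak from 126.7 to 126.8 Mb and 28 from 127.8 to 127.9 Mb, inside PVT1. The longest distance between the centres of neighbouring peaks was 70816 bp, and the median distance was 4875.5 bp. The peaks were 150 to 1276 bp wide, with a median of 326 bp against 275 bp over all peaks, and their median G+C content was 46.7% against 50.1% over all peaks.

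Most peaks lay in introns of long non-coding RNA genes. By the GENCODE release 44 annotation, 177 peaks lay in introns, 42 touched an exon and 36 were intergenic. PCAT1 held 92 of them, PVT1 90, CASC8 23, CASC19 14 and CASC11 11, while the MYC gene body held 4 and LRATD2 held 2. PCAT1 spans 862728 bp in this annotation (126556323 to 127419050), which reaches back to the start of LRATD2, while RefSeq places PCAT1 at 127013154 to 127021014. A peak named here as intronic in PCAT1 can thus lie far outside the RefSeq gene. PVT1 ends at 128187101 in GENCODE and at 128101256 in RefSeq, so peaks named as in PVT1 beyond 128101256 lie past the RefSeq gene.

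The desert held strong sites. The median average level of its peaks was 0.55 log2 CPM (CPM are counts scaled to the library's total in peaks and its TMM factor), averaged over 18 libraries, against 0.20 for all peaks, and the levels ranged from -0.80 to 5.60. Of its 255 peaks, 31 were in the strongest 10% of all peaks, 20 of them in PVT1 and 8 in PCAT1. The strongest was intergenic, at chr8:127507299-127508266 (-227651 bp from the MYC start, counted along the chromosome), and stood at the 99.6th percentile of all peaks. It had 52.2, 61.6 and 68.9 CPM (lowest, median and highest library) in unstimulated cells, 39.8, 46.9 and 52.6 CPM in DMSO cells and 32.0, 37.5 and 41.5 CPM in belinostat cells. The DMSO libraries overlapped the unstimulated libraries by 1 library each, and every belinostat library was below every unstimulated library.

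**Figure D1:**
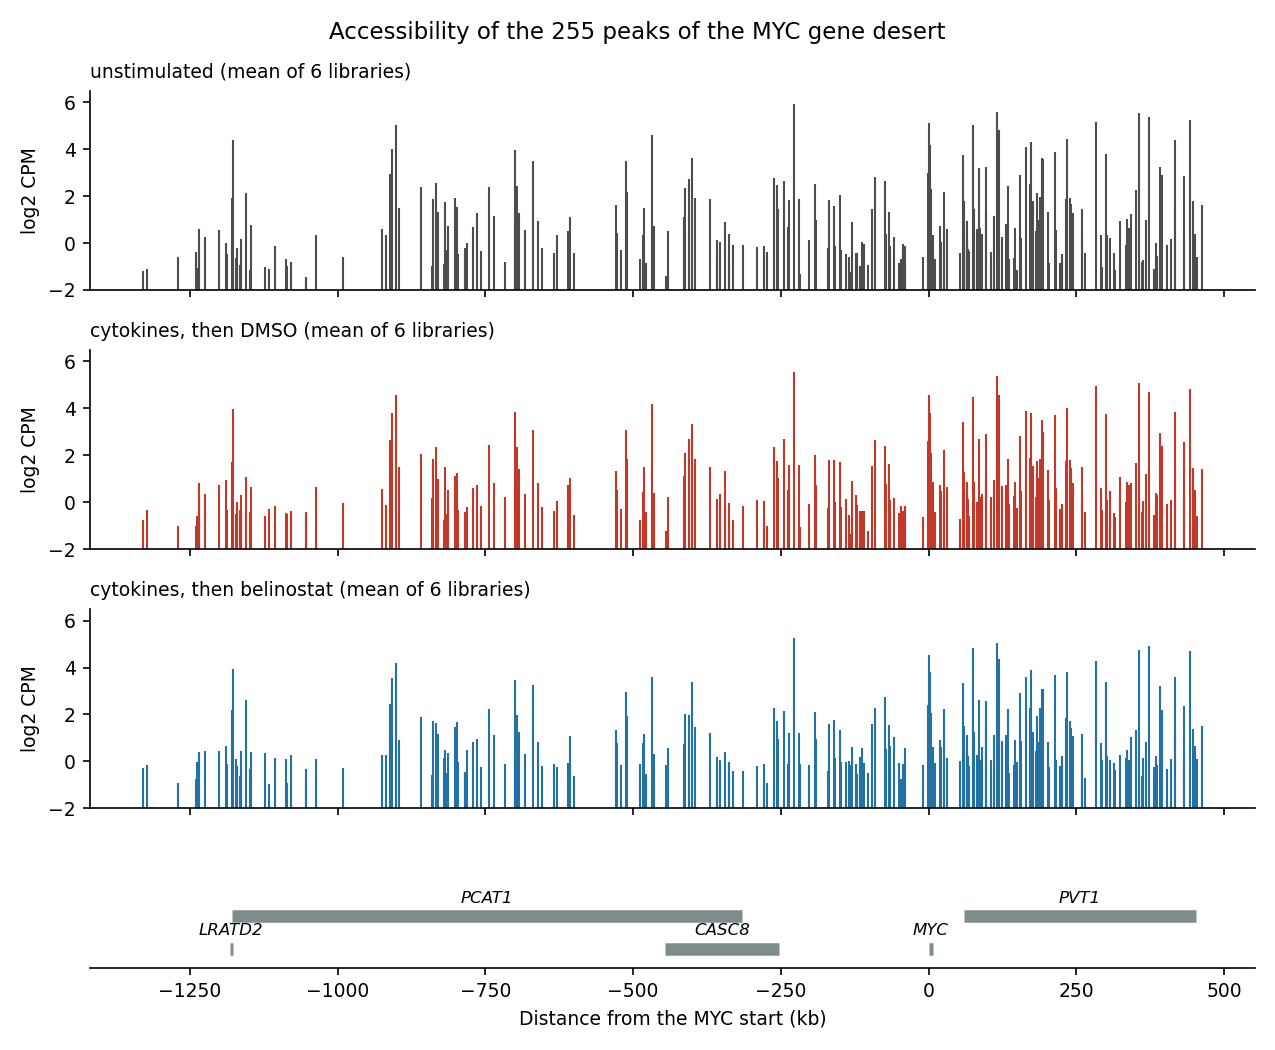
Mean log2 CPM (vertical axis) of each of the 255 peaks in unstimulated, DMSO and belinostat libraries, against the distance of the peak centre from the MYC start in kb (horizontal axis), with gene bodies as grey bars. Tall lines stand in the same places in the 3 groups: at the shared LRATD2 and PCAT1 start, before MYC, at MYC and along PVT1, which held 20 of the 31 strongest peaks.

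The comparison of DMSO with unstimulated cells asked which sites differed weeks after cytokine pulses. For unstimulated cells the labels give no solvent step, rest or collection time. Effects of cytokines, solvent, handling and time in culture can therefore not be told apart, and "after cytokines" is used as a short name for the DMSO group. Under TMM scaling the window as a whole was lower after cytokines. The counts in its 255 peaks summed to 10.07 ± 0.09 log2 CPM (SD, n = 6) in unstimulated libraries and 9.79 ± 0.10 log2 CPM (SD, n = 6) in DMSO libraries. The difference was -0.28 (exact two-sided permutation test, p = 0.00216, the smallest that 6 against 6 libraries can give). The sum includes the selected peak. The p-value is for TMM scaling, and sums over like stretches elsewhere in the genome were not computed. Under that scaling 50.8% of all gene loci, treated below, were lower too, so the fall is not particular to the window. As a share of all counts in peaks the change was small, from a median of 0.0951% (0.0932% to 0.0993%) in unstimulated libraries to 0.0914% (0.0881% to 0.0942%) in DMSO libraries. With library totals in place of TMM the difference was -0.06, and with TMM over the weaker 50% of peaks it was -0.73.

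Single peaks moved both ways. With edgeR's quasi-likelihood test over all 334857 peaks and a Benjamini-Hochberg adjusted p under 0.05, 10 window peaks (3.92%) opened and 27 (10.6%) closed after cytokines. Over all peaks 9.51% opened and 9.73% closed, so the closed share was near that background and the opened share was below it. With library totals 19 peaks (7.45%) opened and 13 (5.10%) closed, beside 16.2% and 3.25% over all peaks. A TMM factor taken from the weaker 50% of peaks gave 1 (0.392%) and 84 (32.9%), beside 2.21% and 25.04%. The opened share was thus below that of all peaks under each of these 3 scalings, and the closed share was above it under both alternatives. The window's median log2 fold change was -0.09 beside 0.13 over all peaks under TMM, 0.11 and 0.34 under library totals, and -0.54 and -0.30 under TMM over the weaker peaks.

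The closed peaks were strong and the opened peaks weak. The selected PCAT1 peak is 1 of the 27 closed peaks, and its call is a description. The other 26, of 254 window peaks besides it (10.2%), had a median level of 3.62 log2 CPM and a median log2 fold change of -0.48, 14 of them lay in PVT1, and in 11 of them the unstimulated and DMSO libraries did not overlap. The 10 opened peaks had a median level of -0.08 log2 CPM and a median log2 fold change of 1.33, 5 of them lay in PVT1 and 4 in PCAT1, and only 1 of them showed no overlap. Of the 31 window peaks in the strongest 10%, 17 closed and 0 opened, and 31 of 31 had a fold change below 0. Of the 80 window peaks with an average under 0 log2 CPM, 0 closed and 7 opened. Among all peaks sorted by level into 20 classes, the strongest (classes 19 and 20) had median log2 fold changes of -0.34 and -0.37. Shares called, or without overlap, among all peaks of like level were not computed. The number opened dropped to 4 without unstimulated replicate 1 or DMSO replicate 4, to 5 without unstimulated replicate 6 or DMSO replicate 1, and to 6 without unstimulated replicate 3 or DMSO replicate 5.

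The same relation with strength held over all peaks. Sorted by level into 20 equal classes, all peaks had a median log2 fold change of 0.79 in the weakest class and -0.37 in the strongest. Beside peaks of its own class a window peak differed by a median of -0.09, and 156 of the 255 were below the median of their class. With loess offsets, which take out each library's trend with peak level, 2 window peaks opened (0.784%) and 6 closed (2.35%, the selected peak among them), beside 1.97% and 1.86% over all peaks. Of the 26 closed peaks besides the selected one 2 still passed, and of the 10 opened peaks 0.

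**Figure D2:**
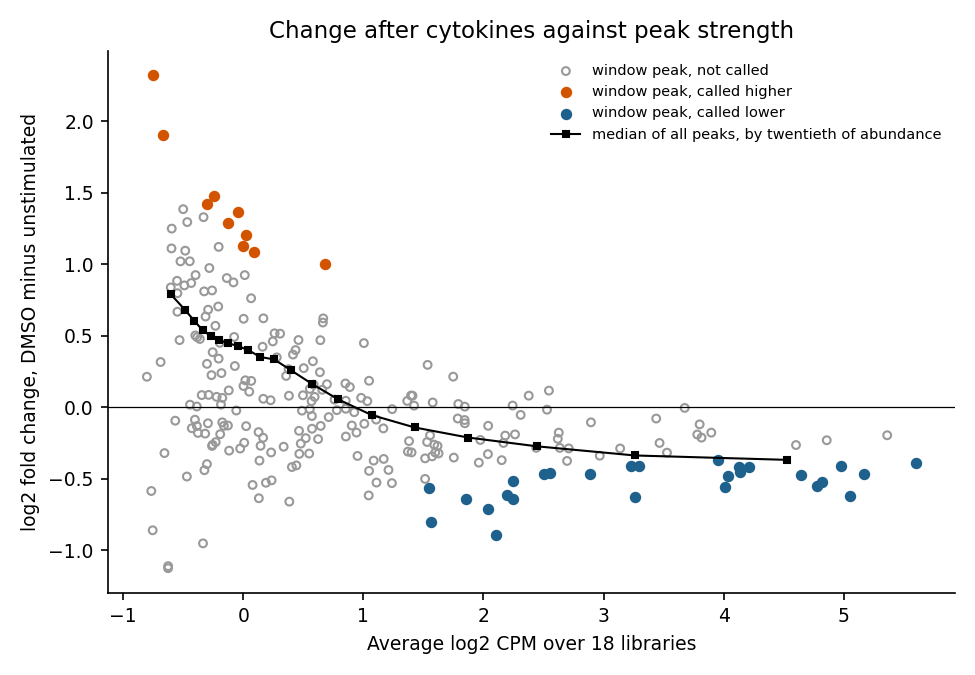
Log2 fold change of DMSO over unstimulated libraries (vertical axis) of each window peak against its average log2 CPM over 18 libraries (horizontal axis), with peaks that passed the test filled and the median of all 334857 peaks in 20 classes of level as black squares. The 27 closed peaks stand to the right, most of them close to the black line, and the 10 opened peaks stand to the left, above it.

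The MYC start was lower after cytokines. Its peak at chr8:127735179-127736426, over the annotated start and first exon, had 31.7, 34.0 and 39.9 CPM (lowest, median, highest) in unstimulated cells, 22.0, 23.6 and 25.8 CPM in DMSO cells and 19.9, 21.9 and 27.7 CPM in belinostat cells. All 6 DMSO libraries were below all 6 unstimulated libraries. The peak fell by 0.55 ± 0.11 (SE) on the log2 scale (edgeR adjusted p = 0.000145), while all peaks of its class of level had a median of -0.37. With loess offsets the difference was -0.16 (adjusted p = 0.149).

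A second MYC start peak, at chr8:127737296-127738042 over a later annotated start, fell by 0.37 ± 0.12 (SE) on the log2 scale (edgeR adjusted p = 0.0184), which is the median of its class, and its libraries did not overlap either. It had 15.8, 17.8 and 20.6 CPM in unstimulated cells and 12.4, 13.8 and 15.6 CPM in DMSO cells. The third, at chr8:127738615-127738806, did not pass (-0.20 ± 0.17, edgeR adjusted p = 0.423). Of 33 window peaks within 500 bp of an annotated start, 5 closed, 0 opened and 23 had a fold change below 0, beside 9.73% closed and 9.51% opened over all peaks. The share of start peaks closed over all genes was not computed.

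LRATD2 and the GENCODE form of PCAT1 run in opposite directions, overlap at their starts and share their start peaks. The stronger, at chr8:126558040-126558742, had 17.0, 20.5 and 24.9 CPM in unstimulated cells, 13.4, 15.8 and 16.9 CPM in DMSO cells and 12.9, 15.0 and 19.3 CPM in belinostat cells. The unstimulated and DMSO libraries did not overlap, and the peak fell by 0.42 ± 0.12 (SE) on the log2 scale (edgeR adjusted p = 0.00692), against -0.37 for its class. The weaker peak, at chr8:126556381-126556930, did not pass (-0.23 ± 0.19, edgeR adjusted p = 0.396).

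PVT1 has 16 peaks within 500 bp of an annotated start, of which 1 closed and 0 opened. The peak over its first start, at chr8:127793701-127794964, had 11.6, 13.5 and 15.1 CPM in unstimulated cells and 9.01, 10.1 and 14.2 CPM in DMSO cells, which overlapped, and did not pass (-0.32 ± 0.13, edgeR adjusted p = 0.0615). A weaker peak nearby, at chr8:127795263-127795679, fell by 0.56 ± 0.20 (SE) on the log2 scale (edgeR adjusted p = 0.0384). The strongest start peak of PVT1, over an internal start at chr8:127854252-127854956, did not pass (-0.26 ± 0.11, edgeR adjusted p = 0.0757), and with loess offsets its sign turned (0.11).

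**Figure D3:**
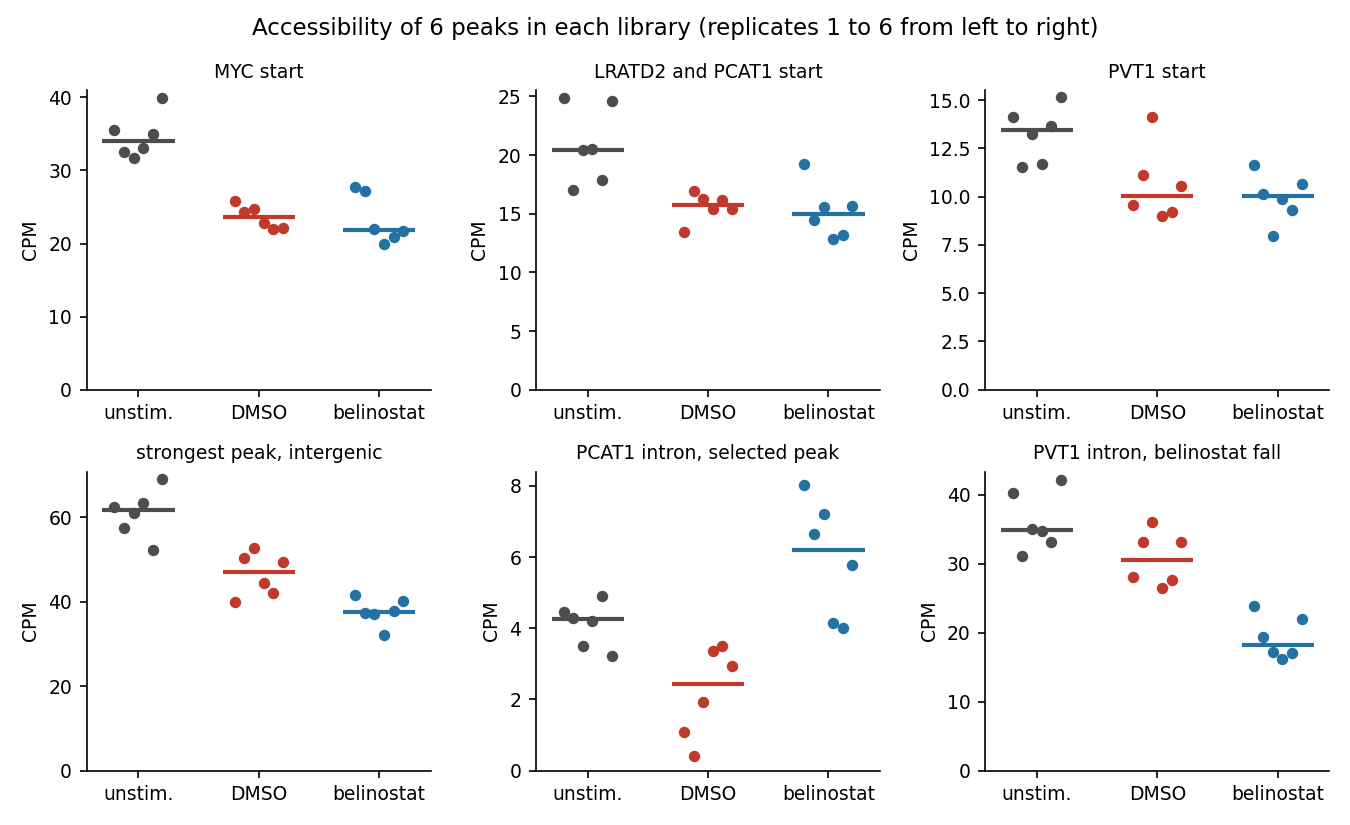
CPM of 6 peaks (vertical axes, each from 0) in each library, with replicates 1 to 6 of each group from left to right and the group median as a bar. At the MYC start all DMSO libraries, 22.0 to 25.8 CPM, lie below all unstimulated libraries, 31.7 to 39.9 CPM. At the selected PCAT1 peak the DMSO libraries spread from 0.41 to 3.50 CPM and the belinostat libraries from 4.02 to 8.02 CPM.

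The strong peaks of the PVT1 body behaved unequally. Among the 10 strongest peaks of the window, 6 lay in PVT1 introns or exons besides the internal start. At chr8:128108839-128109472, in an intron, unstimulated cells had 32.9, 41.5 and 48.6 CPM and DMSO cells 16.0, 29.6 and 33.0 CPM, a fall by 0.62 ± 0.11 (SE) on the log2 scale (edgeR adjusted p = 4.06e-05). The groups overlapped. DMSO replicates 1 and 2 had 16.0 and 20.4 CPM, and the other DMSO libraries 28.9 to 33.0 CPM. That peak passed under 26 of 26 alternatives, loess offsets included (-0.23, adjusted p = 0.0459), but no alternative left out both replicates 1 and 2. The second strongest peak of the window, at chr8:127851446-127852490 in PVT1, had 40.1, 49.7 and 52.5 CPM against 34.7, 43.7 and 47.0 CPM and did not pass (-0.20 ± 0.10, edgeR adjusted p = 0.167). Its sign turned with library totals (0.02) and with loess offsets (0.21).

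Of the other strong PVT1 peaks, that at chr8:127809666-127810603 closed with no overlap of the groups (-0.52), as did that at chr8:128090967-128091722 (-0.47). The peak at chr8:128176374-128177574 closed with overlap (-0.41). The peak at chr8:128018588-128019218 did not pass (-0.23 ± 0.11, edgeR adjusted p = 0.111). The strongest peak of the window, before MYC, closed (-0.39 ± 0.10, edgeR adjusted p = 0.00416), and so did the strongest in PCAT1, at chr8:126833278-126834357, with no overlap (-0.48). All peaks of the strongest class of level had a median of -0.37. With loess offsets none of the closed peaks of this paragraph passed. The difference was then 0.021 at the strongest peak, -0.10 at the PCAT1 peak and -0.14 at chr8:127809666-127810603.

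Besides the selected PCAT1 peak, which is described below, the largest falls among called peaks were of peaks far from MYC and weaker than the strong peaks above. That at chr8:126934507-126934932 in a PCAT1 intron, had 2.73, 3.67 and 3.87 CPM in unstimulated cells and 1.18, 2.12 and 2.92 CPM in DMSO cells, which overlapped. It fell by 0.80 ± 0.21 (SE) on the log2 scale (edgeR adjusted p = 0.00382), beside a median of -0.14 for its class, and passed under 26 of 26 alternatives, with -0.67 under loess offsets. At chr8:127478409-127479121, an exon of CASC8, a long non-coding RNA gene named for cancer susceptibility, unstimulated cells had 4.57, 5.10 and 6.60 CPM and DMSO cells 2.57, 3.22 and 3.64 CPM, with no overlap and a fall by 0.71 ± 0.17 (SE) on the log2 scale (edgeR adjusted p = 0.00198). With loess offsets that peak missed the threshold (adjusted p = 0.057). Next came a pair of peaks at chr8:128086328-128086635 and chr8:127907373-127907729, which lay in PVT1 introns and had a log2 fold change of -0.64 each.

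The largest rises among called peaks of at least 0 log2 CPM were of weak peaks. At chr8:127879535-127879825 in PVT1, unstimulated cells had 0, 0.35 and 1.19 CPM and DMSO cells 0.41, 1.03 and 1.75 CPM (log2 fold change 1.20 ± 0.41 SE, edgeR adjusted p = 0.0263). At chr8:128121572-128121897, also in PVT1, the log2 fold change was 1.08 ± 0.39. The intergenic peak at chr8:126545291-126545883, 10736 bp from the PCAT1 start, had 0.15, 0.71 and 1.27 CPM in unstimulated cells and 1.08, 1.86 and 2.21 CPM in DMSO cells (1.00 ± 0.30, edgeR adjusted p = 0.0125). The groups overlapped in each of these 3 peaks, and with loess offsets none of the 3 passed (adjusted p from 0.0814 to 0.27).

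Summed in fixed bins, 11 of the 18 bins were lower after cytokines and 1 was higher (exact permutation tests, Benjamini-Hochberg adjusted over 18 bins). The lower bin from 126.5 to 126.6 Mb holds the selected peak, so its call is a description. The share of lower bins over the genome was not computed. Of all gene loci, treated below, 50.8% were lower under the same scaling. The bin of MYC, 127.7 to 127.8 Mb, went from 6.65 ± 0.09 to 6.30 ± 0.10 log2 CPM (SD, n = 6), and its exact adjusted p was 0.00487. The last bin, at the end of GENCODE PVT1 and mostly past RefSeq PVT1, had the largest drop, from 7.13 ± 0.13 to 6.70 ± 0.22 log2 CPM. The 1 bin that was higher, 126.6 to 126.7 Mb, held 10 weak peaks inside GENCODE PCAT1 and went from 1.93 ± 0.30 to 2.58 ± 0.35 log2 CPM (exact adjusted p = 0.013). With library totals, 1 bin was lower and 1 higher.

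**Figure D4:**
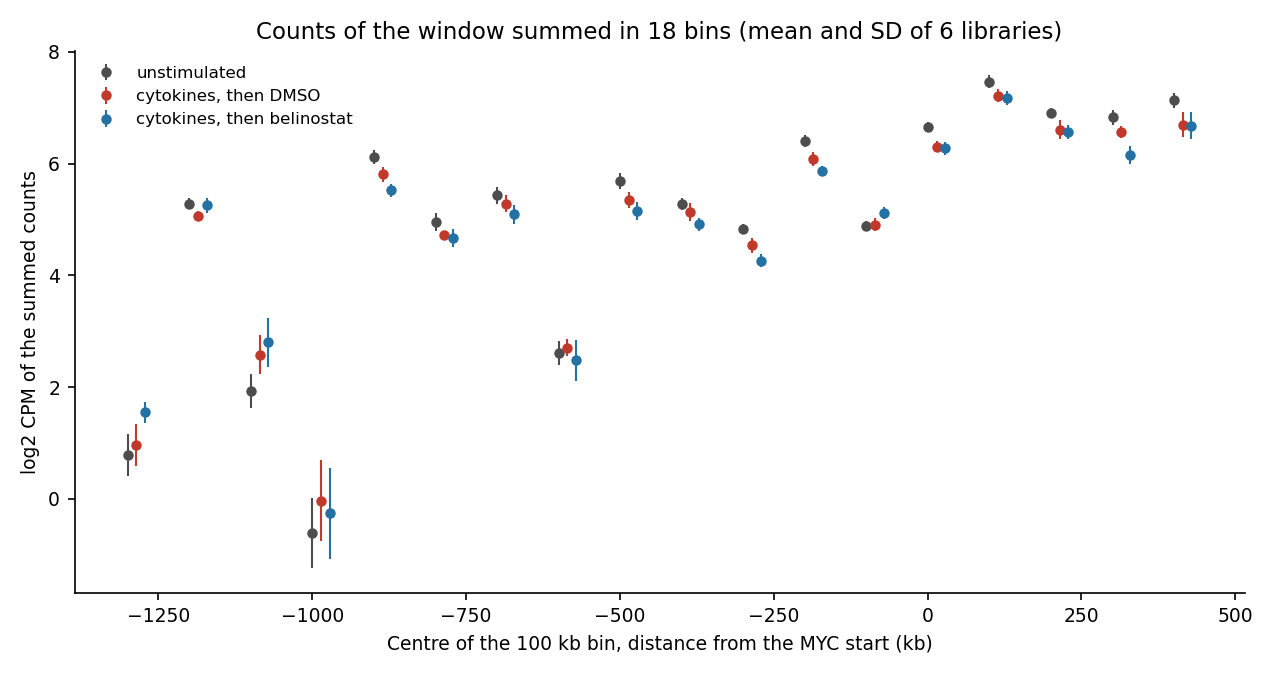
Log2 CPM of the counts summed in 18 bins of 100 kb (vertical axis, mean and SD of 6 libraries) against the distance of the bin centre from the MYC start in kb (horizontal axis), for unstimulated, DMSO and belinostat libraries. DMSO lies below unstimulated in most bins with levels over 4, and above it in the weak bin from 126.6 to 126.7 Mb, where it went from 1.93 to 2.58.

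Counts were also summed over each gene body with 3 kb upstream, for 33596 loci with a peak. Over all loci 50.8% were lower and 13.0% higher after cytokines, with a median log2 fold change of -0.23. This balance under TMM turned under other scalings: 6861 loci were higher and 5336 lower with library totals, 4086 and 2539 with loess offsets, and 6335 and 4447 with DESeq2. The MYC locus, with 5 peaks, had 6.06, 6.11 and 6.38 log2 CPM in unstimulated libraries and 5.64, 5.68 and 5.87 log2 CPM in DMSO libraries, with no overlap. It fell by 0.44 ± 0.08 (SE) on the log2 scale (edgeR adjusted p = 0.000198), a difference of -0.20 from the median locus, and passed under 25 of 25 alternatives, with -0.14 under loess offsets (adjusted p = 0.023).

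Under TMM, PVT1 and PCAT1 stood closer to the median locus than MYC did. LRATD2 differed from the median locus by -0.16, near the value of MYC. LRATD2, with 2 peaks, fell by 0.39 ± 0.10 (SE) on the log2 scale (edgeR adjusted p = 0.0014). PVT1, with 90 peaks, fell by 0.31 ± 0.07 (edgeR adjusted p = 0.000613), and PCAT1, with 92 peaks, by 0.23 ± 0.06 (edgeR adjusted p = 0.00216), which equals the median locus. With loess offsets these 3 did not pass, and their differences were -0.14, -0.04 and 0.05. A locus that spans a desert sums many weak and strong peaks, and PCAT1 shares peaks with LRATD2, CASC8, CASC19 and POU5F1B, as MYC does with CASC11.

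Of 10 further genes listed for the window, CASC21, CCAT1, PCAT2 and TMEM75 were not matched in the annotation used. Of the 6 matched, CASC8 (-0.24), CASC11 (-0.40) and CASC19 (-0.23), long non-coding RNA genes linked by name to cancer susceptibility, were lower, against 50.8% of all loci, but with loess offsets none of the 3 passed (adjusted p from 0.0893 to 0.753). CCAT2 (-0.53), PRNCR1 (-0.13) and POU5F1B (-0.14), a gene derived from the pluripotency factor gene POU5F1, did not pass. With loess offsets CCAT2 passed (-1.02, adjusted p = 0.0214).

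The partners, antagonists and relatives of MYC elsewhere in the genome were listed as 12 loci, of which 8 were lower and 1 was higher, with a median log2 fold change of -0.31 against -0.23 over all loci, of which 50.8% were lower and 13.0% higher. With loess offsets 1 of the 12 was lower and 2 were higher, with a median of -0.02. MYCL, a close relative of MYC, fell by 0.55 ± 0.09 (SE) on the log2 scale (edgeR adjusted p = 8.5e-05) and passed under 25 of 25 alternatives. The antagonists MXD1, MXI1, MXD3, MXD4, MNT and MGA had log2 fold changes from -0.36 to -0.30, and all 6 passed under TMM, but with loess offsets none of the 6 did (adjusted p from 0.184 to 0.911). MAX, the partner of MYC, did not pass (-0.09 ± 0.07) and had 0.21 with loess offsets (adjusted p = 0.00161). MLXIP, a glucose-sensing relative, was lower (-0.33), although it missed the threshold after loess (adjusted p = 0.445), its partner MLX did not pass (-0.20), and its relative MLXIPL was higher (0.25 ± 0.11, edgeR adjusted p = 0.047). MYCN did not pass (0.23 ± 0.15).

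The comparison of belinostat with DMSO asked what differed 2 weeks after the drug, and it shares the DMSO libraries with the cytokine comparison. In the window 5 peaks (1.96%) were called higher and 6 (2.35%) lower, beside 0.607% and 1.75% over all peaks. Since this comparison led to the choice of the window, the counts are a description. The median log2 fold change was -0.0047, and the window sum was 9.69 ± 0.11 log2 CPM (SD, n = 6), a difference of -0.11 from DMSO. In 14 bins the belinostat mean was below DMSO and in 4 above it.

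**Figure D5:**
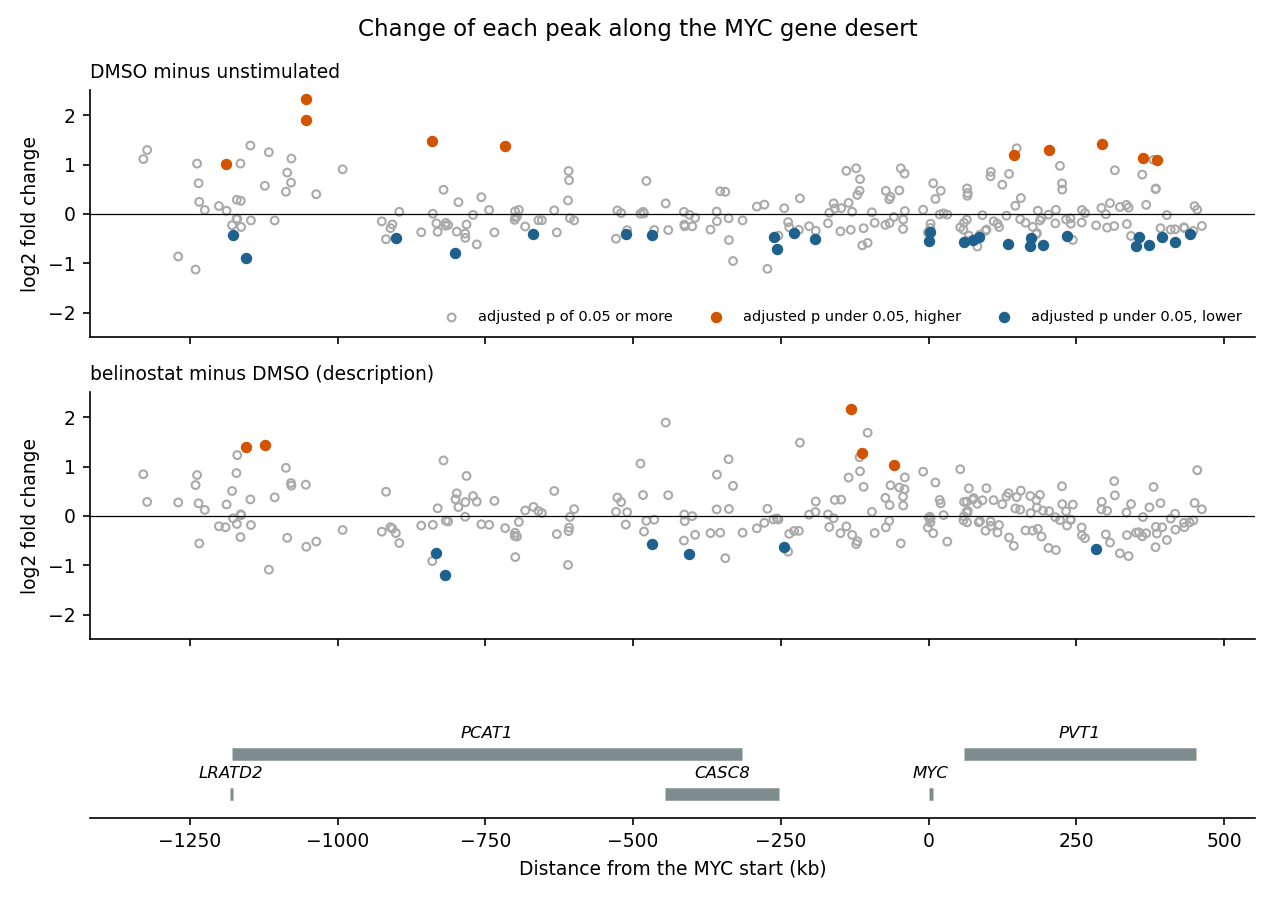
Log2 fold change of each of the 255 peaks (vertical axes) along the desert, as distance from the MYC start in kb (horizontal axis), for DMSO over unstimulated cells and for belinostat over DMSO cells, with peaks at an adjusted p under 0.05 filled. After cytokines 14 of the 27 filled lower points lie in PVT1, and in the belinostat panel 5 points are filled above 0 and 6 below.

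The selected peak lay at chr8:126579740-126580583, in the long GENCODE intron of PCAT1, 21684 bp from the LRATD2 start and 432992 bp before the RefSeq PCAT1 gene. It is 844 bp wide with a G+C content of 51.5%. Unstimulated libraries had 3.22, 4.25 and 4.90 CPM (lowest, median, highest), from 20 to 43 counts. DMSO libraries 1 to 6 had 1.08, 0.41, 1.92, 3.35, 3.50 and 2.94 CPM, from 8, 3, 13, 29, 24 and 22 counts. Belinostat libraries 1 to 6 had 8.02, 6.64, 7.21, 4.15, 4.02 and 5.78 CPM, from 29 to 40 counts. Every belinostat library was above every DMSO library, the DMSO and unstimulated libraries overlapped, and DMSO replicates 1 to 3 were the lowest 3 of the 18 libraries while belinostat replicates 1 to 3 were the highest 3. A partly like order stood at 2 strong PVT1 peaks. At chr8:128108839-128109472 DMSO replicates 1 and 2 and belinostat replicates 4 and 5 were lowest in their groups. At chr8:127809666-127810603 DMSO replicate 1 and belinostat replicates 4 and 5 were. How many peaks share it was not computed. The labels tie replicates of equal number to nothing in common.

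The selected peak's log2 fold change was -0.89 from unstimulated to DMSO, 1.39 from DMSO to belinostat and 0.49 from unstimulated to belinostat. Leaving out 1 library at a time moved the middle value between 1.17 and 1.57. Among the other 98 window peaks of at least 1 log2 CPM, the highest belinostat fold change was 0.56. The same cut was used to pick out the selected peak. Over the whole window the 5 called rises, the selected peak among them, ranged from 1.02 to 2.16, with a median of 1.39. Some weaker peaks thus rose more than the selected peak. The 10 peaks within 25 kb of it had belinostat fold changes from -0.43 to 1.23, 6 of them above 0, and none was called (0 of 10). In the cytokine comparison those 10 ranged from -0.42 to 1.39, and 1 was called, the shared LRATD2 and PCAT1 start.

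Other belinostat differences were as follows. The strong PVT1 intron peak at chr8:128018588-128019218 had 26.5, 30.6 and 36.0 CPM in DMSO cells and 16.2, 18.3 and 23.9 CPM in belinostat cells, with no overlap (-0.68). The peak at chr8:126917427-126918020 in PCAT1 went from 1.73, 2.74 and 3.34 CPM to 0.69, 1.14 and 2.01 CPM (-1.19), and that at chr8:127330184-127330806, in introns of PCAT1, CASC8 and POU5F1B, from 4.37, 5.88 and 9.48 CPM to 2.91, 3.71 and 4.41 CPM (-0.78). The groups overlapped in both. All 6 lower calls were also made with loess offsets, and of the 5 higher calls 1, the selected peak. At the MYC start the belinostat difference was -0.03 ± 0.11 (SE), and at the shared LRATD2 and PCAT1 start -0.05 ± 0.12.

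Across the calls of the 3 comparisons, 19 of the 27 peaks that closed after cytokines were also called lower in belinostat than in unstimulated cells and not called between belinostat and DMSO. From unstimulated to belinostat, 27 peaks (10.6%) were called higher and 49 (19.2%) lower, beside 16.8% and 13.7% over all peaks. The comparisons share libraries, these counts are a description, and the overlap of calls over all peaks was not computed. The MYC locus had 5.44, 5.69 and 5.89 log2 CPM in belinostat libraries, and every one of them was below every unstimulated library.

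The peaks of the window held some short sequence words more often than all peaks, counted on both strands as a description. The AP-1 words TGACTCA and TGAGTCA were in 25.5% of the 255 peaks and 14.7% of all peaks, and the share was higher in the window in each of 4 classes of width (15.6% against 7.09%, 17.2% against 12.6%, 25.4% against 19.6% and 43.8% against 25.2%, from narrow to wide). The TEAD word GGAATG was in 32.2% against 24.2%, the GATA word GATAAG in 13.7% against 9.77%, the NF-κB word GGANTTTCC in 3.53% against 1.79% and the RUNX word TGTGGTTT in 4.31% against 3.42%. The window peaks are wider than all peaks, and for these words the order was not the same in each class of width: the window was below all peaks for TEAD in the third class (28.6% against 29.7%), for GATA in the narrowest (1.56% against 4.94%), for RUNX in the second (1.56% against 2.48%) and for NF-κB in the narrowest (0% against 0.63%). The E-box CACGTG, the word bound by MYC and MAX, was in 3.53% against 6.46%, with 3.12% against 3.08% in the narrowest class. An AP-1 word was in 8 of the 26 closed peaks besides the selected one, whose median width was 778 bp, and in 0 of the 10 opened peaks, whose median width was 299.5 bp. A word match is not a measured binding site.

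Over the 18 libraries, the protein-coding loci whose level followed the MYC locus most closely were ZNF33A (Pearson r = 0.979), FBXL7 (0.979) and SLIRP (0.976), of 17958 loci compared. For the selected PCAT1 peak they were LRP2 (0.865), SNAP91 (0.852) and SAPCD1 (0.850), of 17959. These correlations are a description, since the libraries share 3 groups and their depths.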

How the data were processed

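The members and lists were chosen with earlier results of these data known. Per the labels and the study's methods, the authors aligned ATAC-seq reads to hg38, called peaks with MACS2, merged them into consensus peaks and counted fragments per peak. The deposited values are raw counts per peak for 18 libraries, with no normalization. The authors scaled on background bins of reads, which were not used here, so TMM factors over peaks took their place, and differences in background reads between libraries can pass into the counts of weak peaks. Transposase offset correction was not analysed here.

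Peaks centred in the window were the members (starts are counted from 1). All 334857 peaks were tested with edgeR 4.0.16 (glmQLFit, glmQLFTest) in R 4.3.3, with 1 mean per group and Benjamini-Hochberg adjustment. The study's filter, an average log2 CPM over -3, removed 0 peaks. Log2 CPM used a prior count of 2. Gene loci summed the peaks of the body and 3 kb upstream. For sums and bins, exact permutation tests (two-sided) were run in Python 3.11.15. Genes came from GENCODE release 44. Alternatives used limma 3.58.1 (loess offsets) and DESeq2 1.42.0. The scripts were tested on simulated data. Chi-square per degree of freedom between replicates was at least 1.02, with no pair below sampling noise, so no library was counted as an exact copy. A library split or sequenced again would also stand near sampling noise, so this check cannot tell technical replicates from separate cultures.

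Named peaks were those within 500 bp of a start of MYC, PVT1, PCAT1 or LRATD2 (strongest first), the 10 strongest, up to 5 rises and 5 falls called in each comparison with an average of at least 0 log2 CPM, and the selected peak with those within 25 kb. The text gives values for part of them. Of the cell type markers, 1 is not reported here.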

Additional observations from a re-analysis of the deposited data

Results flagged for a closer look

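Among 180 groups of 6 values that were checked (named peaks and member loci), 10 held a library whose gap to its nearest neighbour was a large part of the group's range (above Dixon's 95% critical value), and chance flags about 1 in 20 groups. The MYC locus stood highest in unstimulated replicate 6, at 6.38 log2 CPM against a median of 6.09 in the other libraries of that group, and without that replicate the locus still passed in the cytokine comparison. The CASC8 exon peak at chr8:127478409-127479121 was also highest in unstimulated replicate 6 (2.78 log2 CPM against a median of 2.43). The same replicate was lowest at chr8:126571988-126572153 in PCAT1 (-0.72 against -0.10) and at chr8:128027521-128028079 in PVT1 (-1.16 against 0.49).

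Unstimulated replicate 2 was lowest at chr8:127975845-127976305 in PVT1 (1.07 against 1.74). DMSO replicate 1 was highest at chr8:126991257-126992097 in PCAT1 (2.75 against 2.39), and DMSO replicate 3 at chr8:127975135-127975744 in PVT1 (2.59 against 1.61). Belinostat replicate 1 was lowest at 2 weak PCAT1 peaks, chr8:126565403-126565608 (-1.81 against 0.04) and chr8:126570772-126570921 (-1.81 against -0.48), and belinostat replicate 6 was highest at chr8:127738615-127738806, the third MYC start peak (2.56 against 1.93).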

How the results depend on the processing

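Counts of called peaks depended on scaling, given here as opened and closed. With an adjusted p under 0.01 and a log2 fold of at least 0.5, 1 and 11 peaks passed after cytokines, 1 opened after belinostat, and 12 and 26 passed from unstimulated to belinostat. Library totals gave 19 and 13 after cytokines and 53 and 16 from unstimulated to belinostat. TMM over the weaker 50% of peaks gave 1 and 84, 6 and 117, and 2 opened after belinostat. Loess offsets gave 2 and 6, 8 and 12, and 3 opened after belinostat. DESeq2 gave 4 and 17 after cytokines and 1 opened after belinostat. With an average over 0 log2 CPM, 3 opened after cytokines, 3 after belinostat and 6 from unstimulated to belinostat, since 80 weak peaks were not tested. With only 2 groups in the fit, 3 opened after belinostat. Leaving out each replicate gave 4 to 11 opened and 20 to 34 closed after cytokines, 1 to 5 and 4 to 13 after belinostat (13 without belinostat replicate 1), 20 to 31 and 42 to 49 from unstimulated to belinostat, a window sum difference of -0.30 to -0.24, 11 to 12 lower and 1 to 2 higher bins, and 4 of 4 member loci past the threshold. Bins numbered 1 lower with library totals and 0 higher with TMM over weaker peaks. Of the member loci 2 passed with library totals, 1 with loess offsets and 2 with DESeq2. Signs turned with loess offsets at chr8:127507299-127508266 (0.021), chr8:127851446-127852490 (0.21, and 0.017 with library totals), chr8:127854252-127854956 (0.11), chr8:128018588-128019218 (0.15), CASC8 (0.063), PCAT1 (0.051), CASC19 (0.033), MLX (0.0045), MAX (0.21) and POU5F1B (0.15). They turned with library totals and DESeq2 for MLX (0.016 and 0.024), MAX (0.13 and 0.13), POU5F1B (0.077 and 0.085) and PRNCR1 (0.086 and 0.12, with -0.36 to 0.16 when leaving out each replicate, the highest without unstimulated replicate 4), and with TMM over weaker peaks for MLXIPL (-0.19) and MYCN (-0.22). Except by the construction of these scalings, the cause was not tested. Replicate numbers did not pair the libraries: deviations of same-numbered libraries correlated by -0.05 to 0.07 in the cytokine comparison, and a replicate block gave 10 and 28, 5 and 8, and 28 and 49 calls. The lowest peaks rest on few counts, and 62 of 255 had a library at 0.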
